A study of Rattus norvegicus with 4 samples.

Results

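The comparison described here sets the fracture callus of diabetic rats against that of control rats 5 days after the fracture. It uses 2 of the 4 arrays of the study, 1 per group, and the other 2 hold the same groups on day 11. Both groups were 12-week-old male Sprague-Dawley rats with a closed transverse fracture of the femoral shaft, stabilised by a wire in the marrow canal. The diabetic group had received 1 intravenous dose of 40 mg/kg streptozotocin, a compound that kills pancreatic beta cells, and had a blood glucose above 300 mg/dl. The control group had received sodium chloride as a sham injection and had a normal blood glucose. Each array carried total RNA of callus tissue pooled from 5 animals. With 1 pool per group there is no replicate, no spread between animals can be given and no test can be made, so every difference below is a difference between these 2 pools. All 727 rat microRNAs (miRNAs) of the array, each with 1 spot, were taken into the comparison.

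A miRNA is a short RNA that guides a silencing complex to messenger RNAs, mostly through its seed, the bases 2 to 8 from its 5′ end. It is cut from a hairpin, which can give a mature miRNA from its 5′ side (the 5p arm) and from its 3′ side (the 3p arm). Many miRNAs are abundant in 1 cell type, so a tissue profile reflects which cells are present as well as what those cells make. The early callus of a long bone holds clotted blood, inflammatory leukocytes, new vessels, torn muscle and spreading mesenchymal cells. Cartilage and bone follow later.

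The sequences that carry the comparison are given first, because the arrays read mature miRNAs and a shared seed marks miRNAs that can bind the same sites. Mature sequences of 653 of the 727 miRNAs were found in RefSeq (build GRCr8), and the seed is in capitals. The members of the miR-181 family are shown to separate the seed that its 5p arms share from the seeds of its 3p arms:
miR-181a-5p: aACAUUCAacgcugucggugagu
miR-181b-5p: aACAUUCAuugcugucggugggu
miR-181c-5p: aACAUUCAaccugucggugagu
miR-181d-5p: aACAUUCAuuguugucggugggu
miR-181a-1-3p: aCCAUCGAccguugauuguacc
miR-181c-3p: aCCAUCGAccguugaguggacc
miR-181b-1-3p: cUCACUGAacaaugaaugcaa
miR-181d-3p: cCACCGGGggaugaauguca

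The erythroid pair miR-144-3p and miR-451-5p comes from neighbouring hairpins on the plus strand, at chr10:63459446-63459465 and chr10:63459585-63459606, and has unlike seeds. The next 6 sequences are leukocyte miRNAs and the last 2 are the arms of the endothelial miR-126a hairpin. Among these, only miR-146a-5p and miR-146b-5p share a seed:
miR-144-3p: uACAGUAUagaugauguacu
miR-451-5p: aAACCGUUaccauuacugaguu
miR-223-3p: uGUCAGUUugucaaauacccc
miR-142-3p: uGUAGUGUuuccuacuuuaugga
miR-142-5p: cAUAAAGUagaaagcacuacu
miR-146a-5p: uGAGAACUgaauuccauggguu
miR-146b-5p: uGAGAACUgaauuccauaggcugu
miR-155-5p: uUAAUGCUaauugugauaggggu
miR-126a-3p: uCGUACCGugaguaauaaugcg
miR-126a-5p: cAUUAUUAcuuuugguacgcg

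Others with large differences follow, the first 5 higher and the last 5 lower in the diabetic pool. No 2 of these 10 share a seed:
miR-532-5p: cAUGCCUUgaguguaggacugu
miR-671: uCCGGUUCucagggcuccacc
miR-551b-3p: gGCGACCCauacuugguuucagu
miR-339-3p: uGAGCGCCucgacgacagagcca
miR-222-3p: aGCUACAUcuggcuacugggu
miR-224-3p: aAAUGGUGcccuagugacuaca
miR-6324: uCAGUAGGccagacagcaagcac
miR-6216: gAUACACAgaggcaggaggagaa
miR-3594-5p: cCCAGGGCagagcagugugaa
miR-3594-3p: cACACCGCcucugcccgcuagu

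Values are levels. A level is the intensity of a spot less the average of the blanks on its array, multiplied to bring the 400 miRNAs seen on every array to a median of 100. A miRNA was detected where its spot exceeded the blank mean by 2 SD of the blanks. Differences are log2 of diabetic over control, so that 1 stands for 2-fold higher and -1 for 2-fold lower in the diabetic pool. The ± after a difference is a technical error made from the spread of the spike and blank spots on both arrays. It says nothing about the spread between animals or pools.

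The control array detected 504 miRNAs (69.3%) and the diabetic array 560 (77.0%). Both detected 468, the diabetic array alone 92, the control array alone 36 and neither 131. The dimmest detected miRNA was at 10.2 on the control and at 11.2 on the diabetic array, and the brightest undetected one at 9.98 and 11.18. The 92 miRNAs of the diabetic array alone were all dim, with levels from 11.2 to 48.5 and a median of 15.9. Of them 50 were detected on neither day 11 array, and 24 were at least 2-fold higher when set against the detection limit of the control array. The larger number detected on the diabetic array thus came from dim miRNAs, most of them less than 2-fold above the detection limit of the control array.

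Most miRNAs had similar levels in the 2 pools. Over the 468 detected on both arrays the median difference was 0.038, the middle 50% lay between -0.24 and 0.30, and the SD was 0.52. Of the 468, 20 (4.27%) were at least 2-fold higher and 12 (2.56%) at least 2-fold lower in diabetic callus, 32 (6.84%) in all. Nearest to that limit were miR-339-3p (1.02) inside and miR-3065-3p (0.99) outside on the higher side, and miR-3594-5p (-1.01) and miR-3557-3p (-0.97) on the lower side.

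The spread depended on brightness. Of the 69 miRNAs with a mean level of at least 1000, 0 were 2-fold different and the SD was 0.23. Below a mean level of 50 there were 181 miRNAs with 15 at least 2-fold higher, 7 at least 2-fold lower and an SD of 0.64. A spot was called bright where it exceeded the blank mean by 10 blank SDs on at least 1 of the 2 arrays. The 296 bright miRNAs had a median of -0.0019 with 7 higher and 6 lower by 2-fold, and the 172 others a median of 0.16 with 13 and 6. Differences of more than 2 technical errors numbered 73 (15.6%) on the higher and 66 (14.1%) on the lower side. When the local background beside each spot was used in place of the blanks, with an offset and quantile normalisation, the differences shrank. In that setting, among the 468 miRNAs detected on both arrays, only miR-451-5p (1.19) was 2-fold higher and only miR-223-3p (-1.04) 2-fold lower. Scaling on the spike controls and the scaling of the authors' deposited values, both used below, move the differences of all miRNAs by 1 amount. The medians of all 468 were -0.12 and 0.34 there.

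**Figure D1:**
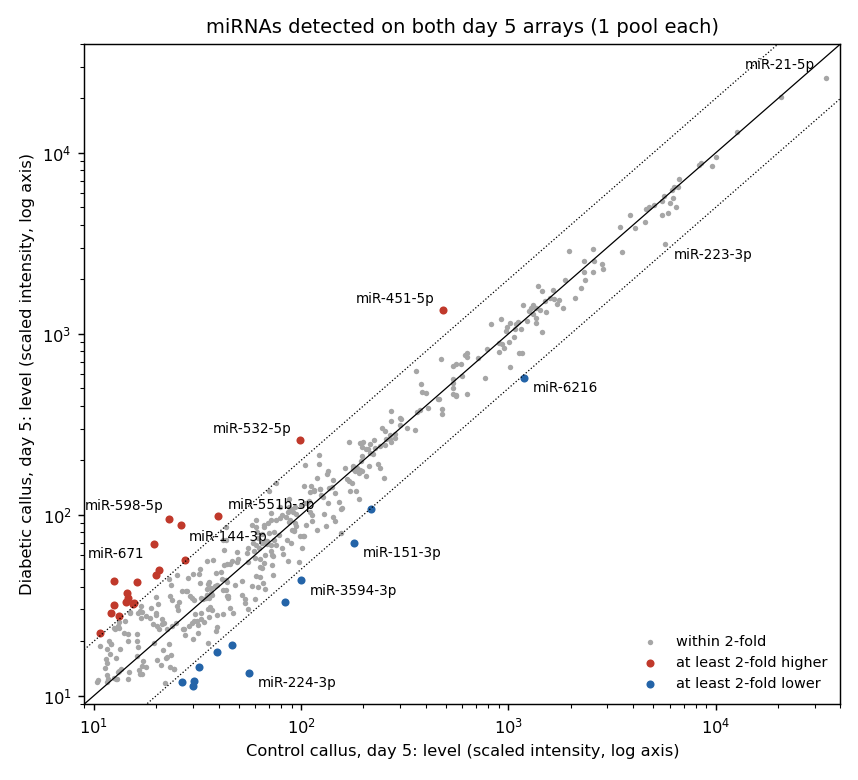
Level of each of the 468 miRNAs detected on both day 5 arrays in control (x axis) and diabetic callus (y axis), as scaled intensity on log axes. The solid line marks equal levels and the dotted lines 2-fold differences. The 20 higher (red) and 12 lower (blue) miRNAs lie mostly at the dim end, and miR-451-5p and miR-6216 are the brightest of each.

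Position on the array moved with the differences and touches several results below. The array holds 32 spotting blocks. In block 25 the median difference of 19 miRNAs was 0.57 and in block 27 that of 19 others was 0.62, whereas the medians of the other 30 blocks lay between -0.36 and 0.22. In the 2 blocks together 33 miRNAs were higher and 5 lower, and they held 5 of the 20 miRNAs that were 2-fold higher, 0 of the 12 lower and 9 of the 92 seen on the diabetic array alone. Outside them 224 (52.1%) were higher. The blank spots of the 2 blocks did not stand apart, with medians 0.05 and 0.23 blank SDs from the array mean in block 25 and 0.53 and 0.39 in block 27, on the control and the diabetic array. On the day 11 arrays the block medians were -0.33 and -0.050. The lowest block median, -0.36, was that of block 2, which holds miR-21-5p, miR-146b-5p, let-7a-5p, let-7b-5p, miR-330-3p and miR-551b-3p. For named miRNAs of these 3 blocks detected on both arrays, the difference from the block median is given below as the block-centred difference. The part of the position in the result was not tested.

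**Figure D2:**
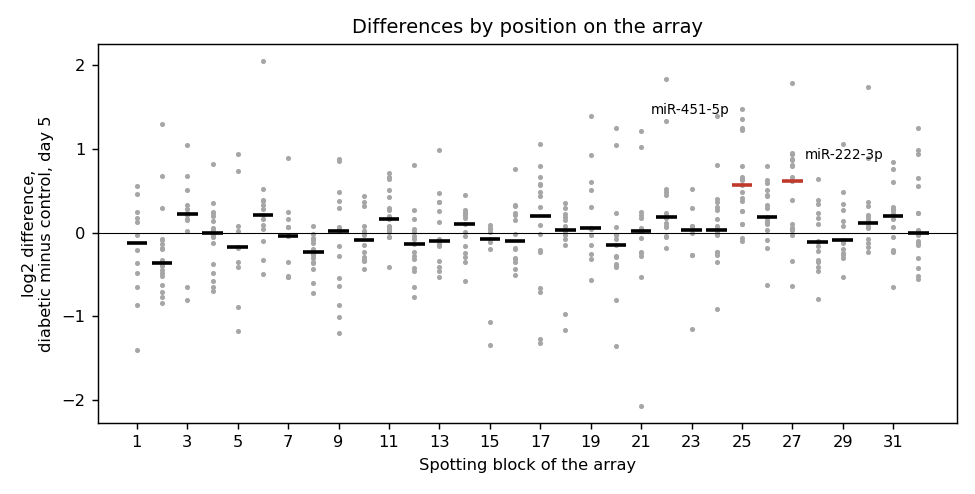
Log2 difference of diabetic minus control callus on day 5 (y axis) by spotting block of the array (x axis). Each point is 1 of 468 miRNAs and each bar a block median. The bars of blocks 25 and 27 (red, 0.57 and 0.62) lie above those of the other 30 blocks (-0.36 to 0.22).

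The 10 brightest miRNAs included some typical of mesenchymal cells and of skeletal muscle, and none of the leukocyte miRNAs listed below. miR-21-5p, which is induced in stroma and in inflamed tissue, had the highest level, 33896 in control and 25787 in diabetic callus, a difference of -0.39 ± 0.11 that was -0.03 block-centred. miR-199a-3p and miR-199a-5p, typical of mesenchymal cells, differed by 0.04 and 0.06. The skeletal muscle miRNAs miR-1-3p, miR-133b-3p and miR-133a-3p were among the 10 brightest, with differences of 0.04, 0.05 and 0.11. Also among the 10 were miR-347, miR-16-5p and miR-23a-3p, with differences of -0.08, -0.18 and -0.03. miR-347 lies in block 2 and was 0.28 block-centred. miR-375-5p was second brightest, at 20707 and 20260.2. Its other arm miR-375-3p, the arm known from pancreatic islets, was not detected on either array.

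Markers of cartilage and bone were present at like levels in both pools on day 5. All 6 cartilage miRNAs were detected, 4 higher and 2 lower in the diabetic pool, with a median of 0.11 that turned to -0.042 when the arrays were scaled on the spike controls. miR-140-5p, abundant in chondrocytes, was at 785 in control and 829 in diabetic callus. miR-455-3p, another chondrocyte miRNA, was at 135 and 175 (0.37 ± 0.13), the only one of the 6 that differed by more than 2 technical errors. Of 11 osteoblast-related miRNAs 8 were detected on both arrays, 4 higher and 4 lower, with a median of 0.027. The bone miRNA miR-218a-5p was at 119 and 161 (0.43 ± 0.14), and miR-338-5p was at 157 and 109 (-0.53 ± 0.14). The brightest, miR-204-3p, was at 2318 and 2529.8 (0.13 ± 0.11).

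Leukocyte miRNAs were lower in the diabetic pool as a group. Of 14 on the array 12 were detected on both arrays, and 9 of these were lower and 3 higher, where 45.1% of all 468 miRNAs were lower. Their median was -0.37 against 0.038 for all, and 6 were lower and 1 higher by more than 2 technical errors. The summed level of the list was 10405 in control and 6562 in diabetic callus. In a bulk pool fewer leukocytes and less of these miRNAs per leukocyte cannot be told apart. The list's median was -0.15 block-centred and -0.32 with the local background. In the authors' deposited values, where the median of all miRNAs was 0.34, it was -0.072. The sign of the list's median did not turn in any setting tried.

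miR-223-3p, the leading miRNA of neutrophils and other myeloid cells, was at 5675 in control and 3130.4 in diabetic callus. This is a difference of -0.86 ± 0.11, and among the 69 miRNAs with a mean level of at least 1000 it was the lowest. Its minor arm miR-223-5p was near the detection limit on both arrays, at 13.5 and 14.1. The hairpin miR-142, active in all blood lineages, gave like values for both arms. miR-142-3p was at 1168 and 784 (-0.58 ± 0.11) and miR-142-5p at 1129 and 786 (-0.52 ± 0.11). Of the pair that shares the seed GAGAACU and dampens inflammatory signalling, miR-146a-5p was at 1022 and 654 (-0.65 ± 0.11). The other, miR-146b-5p, was at 630 and 464, with a difference of -0.44 that was -0.08 block-centred. Its passenger arm miR-146b-3p was detected on the control array alone, at 33.2, and was at least 2.96-fold lower, though -0.06 on the log2 scale with the local background.

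The miRNAs of lymphocytes had no common direction. miR-150-5p, of mature B and T cells, was at 411.2 and 391.8 (-0.07 ± 0.11). The miR-342 hairpin, hosted by the gene Evl, had miR-342-3p at 93.5 and 110.1 (0.23 ± 0.15) and miR-342-5p at 59.8 and 34.2 (-0.81 ± 0.29). miR-155-5p, induced in activated lymphocytes and macrophages, was the member that was higher by more than 2 technical errors, at 71.5 and 102 (0.52 ± 0.17). The 6 members that were lower by more than 2 technical errors were thus miR-223-3p, both arms of miR-142, miR-146a-5p, miR-146b-5p and miR-342-5p. The list of inflammation-induced miRNAs, which shares the miR-146 and miR-155 members with the leukocyte list, had 5 lower and 2 higher of 7. Its median of -0.27 was 0.031 in the authors' deposited values, where that of all miRNAs was 0.34.

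Both detected endothelial miRNAs were lower. miR-126a-3p, which is hosted by the endothelial gene Egfl7 and supports vessel growth, was at 6414 and 5036 (-0.35 ± 0.11). miR-126a-5p was at 559 and 456 (-0.29 ± 0.11), and miR-126b was not detected. The median of all 468 miRNAs was -0.12 with scaling on the spike controls and 0.34 in the authors' deposited values. The endothelial median of -0.32 was -0.48 in the first setting and -0.019 in the second. The 4 miRNAs of vessel wall smooth muscle did not share that sign, with 3 higher, 1 lower and a median of 0.19. miR-143-3p was at 2595 and 2521, and miR-145-5p at 978 and 1031.

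Erythroid miRNAs were higher in the diabetic pool. miR-451-5p, the red cell miRNA that is cut by Ago2 instead of Dicer, was at 485.8 in control and 1357 in diabetic callus. It was 2.79-fold higher (1.48 ± 0.11) and the only miRNA above a mean level of 300 that was 2-fold higher. Its spot lies in block 25 and the block-centred difference was 0.91. miR-144-3p, from the same primary transcript, lies in another block and was at 26.5 and 88.3 (1.74 ± 0.31, 1.63 block-centred). With the local background its difference was 0.51. The other arm of that hairpin, miR-144-5p, was detected on the diabetic array alone at 14.9, and miR-451-3p on neither. The summed level of the 4 erythroid miRNAs was 517 in control and 1467 in diabetic callus, and the median of the 2 detected on both arrays was 1.61, or 1.27 block-centred. These miRNAs mark red cells that a callus holds in clot or vessels, and the part of red cells in the other differences was not tested.

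**Figure D3:**
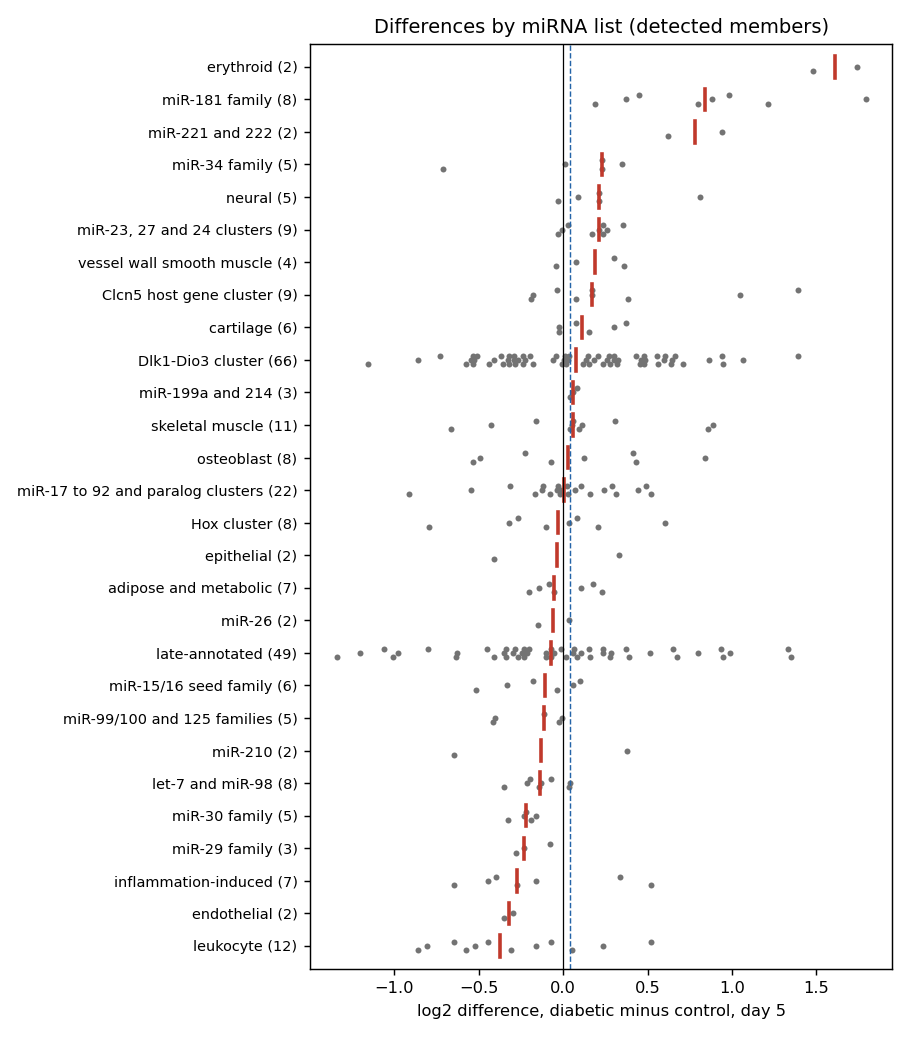
Log2 difference of diabetic minus control callus on day 5 (x axis) for the members of each miRNA list that were detected on both arrays, with their number in brackets. Points are miRNAs, red bars list medians and the dashed line the median of all 468 (0.038). The erythroid, miR-181 and miR-221 with miR-222 lists lie highest, and the leukocyte, endothelial and inflammation-induced lists lowest.

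All 8 members of the miR-181 family detected on both arrays were higher in the diabetic pool, where 54.9% of all 468 miRNAs were. The family is known from maturing lymphocytes and from inflamed vessels. Its median was 0.84, and 7 of the 8 were higher by more than 2 technical errors. The 4 that share the seed ACAUUCA differed among themselves. miR-181a-5p, the brightest, was at 826 and 1128 (0.45 ± 0.11). miR-181b-5p was at 122.4 and 213 (0.80 ± 0.13), miR-181c-5p at 69.4 and 89.7 (0.37 ± 0.18) and miR-181d-5p at 85.0 and 97.0 (0.19 ± 0.16). Their median of 0.41 was the highest of the seed groups with at least 4 detected members.

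The 3p arms detected on both arrays had larger differences than the 5p arms, and all but miR-181a-1-3p were dimmer. miR-181a-1-3p was at 75.4 and 149 (0.99 ± 0.16) and miR-181b-1-3p at 25.1 and 46.3 (0.88 ± 0.35). miR-181d-3p was at 14.3 and 33.1 (1.21 ± 0.57). miR-181c-3p was at 12.5 and 43.2, a difference of 1.79 ± 0.62 that was 1.17 block-centred, as its spot lies in block 27. Of the remaining arms, miR-181a-2-3p was detected on the diabetic array alone (24.02, also block 27) and miR-181b-2-3p on the control array alone (17.1). The family's median was 0.40 with the local background and 0.60 with detection at 3 SD.

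miR-221-3p and miR-222-3p, which share a seed and act on the cell cycle and on vessel cells, were both higher. miR-221-3p was at 475 and 730.4 (0.62 ± 0.11) and miR-222-3p at 70.3 and 135 (0.94 ± 0.16). Both lie in block 27, where miR-221-3p is itself the median, so that its block-centred difference is 0 by construction, and that of miR-222-3p was 0.32. The 10 bright miRNAs of that block, to which both belong, had a median of 0.070, below the 0.62 of all 19. With the local background the differences were 0.26 and 0.37.

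The largest positive difference among bright miRNAs was that of miR-598-5p, at 23.03 in control and 95.2 in diabetic callus (2.05 ± 0.34). miR-671 was at 19.5 and 69.4 (1.83 ± 0.41). With the local background these differences were 0.57 and 0.49. miR-532-5p, from a cluster inside the chloride channel gene Clcn5, was at 99.2 and 259.6. It was 2.62-fold higher (1.39 ± 0.14), with 0.97 for the local background. It kept a 2-fold difference in 12 of 13 alternative settings, as did miR-598-5p, miR-671 and miR-551b-3p, and the exception was the local background. Several of the other settings shift all miRNAs alike or change only which miRNAs are counted, so the tally adds little. miR-551b-3p was at 39.9 and 98.5 (1.30 ± 0.23) in a block of low median, and was 1.67 block-centred but 0.31 with the local background. miR-339-3p was at 27.7 and 56.1 (1.02 ± 0.32), and miR-3065-3p at 43.3 and 85.8 (0.99 ± 0.22). With the local background these differences were 0.21 and 0.14.

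The neighbours of miR-532-5p did not have a difference of its size. The cluster at chrX:17919195-17930716 (GRCr8) gave 8 mature miRNAs with a sequence that both arrays detected, 5 higher and 3 lower, with a median of 0.17. miR-532-3p, the other arm of the hairpin, was at 71.9 and 93.8 (0.38 ± 0.17). miR-500-3p was at 187 and 183, miR-501-3p at 112 and 99.3 and miR-362-3p at 123.98 and 139. The dim miR-188-3p was at 13.3 and 27.5 (1.05 ± 0.63). The list of 10 miRNAs of that host gene had 6 higher and 3 lower and a median of 0.17, which was -0.0074 with the local background.

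The muscle miRNAs as a group were alike in both pools, although single members were not. Of 11 detected on both arrays 8 were higher and 3 lower, with a median of 0.057 that was -0.10 when scaled on the spike controls. Their summed level was 28679 and 30095. miR-206-3p, of regenerating muscle, was at 4611 and 4931 (0.10 ± 0.11). miR-133a-5p, the minor arm of a bright hairpin, was at 104 and 189 (0.86 ± 0.14). miR-499-5p, of slow muscle fibres, was at 253 and 159 (-0.66 ± 0.13), and miR-133c at 102.5 and 76.4 (-0.42 ± 0.17).

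Among bright miRNAs lower in the diabetic pool, miR-224-3p had the largest difference. It was at 56.3 in control and at 13.4, near the detection limit, in diabetic callus (-2.06 ± 0.63), and with the local background the difference was -0.48. Its other arm miR-224-5p was at 82.1 and 60.8 (-0.43 ± 0.19). miR-151-3p was at 179 and 70.1 (-1.36 ± 0.17), with -0.74 for the local background. The other arm of that hairpin, miR-151-5p, was at 299.2 and 343 (0.20 ± 0.12), so the 2 arms differed in sign. miR-135a-3p was at 55.8 and 30.2 (-0.88 ± 0.32). miR-330-3p was at 97.9 and 54.9, a difference of -0.84 ± 0.20 that was -0.47 block-centred. miR-207 was at 66.9 and 39.1 (-0.77 ± 0.26). With the local background the differences of miR-135a-3p, miR-330-3p and miR-207 were -0.40, -0.23 and -0.050.

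Rat miRNAs with names numbered 3000 and up, which entered the catalogues late and often have no known role, made up 5 of the 12 bright miRNAs with the largest negative differences, and 49 of all 468 miRNAs. miR-6216 was the brightest of all 2-fold lower miRNAs, at 1191 and 570.2 (-1.06 ± 0.11, and -0.94 with the local background). miR-6324, in block 15 as is miR-6216, was at 84.1 and 33.2 (-1.34 ± 0.28, and -0.52 with the local background). The median of that block was -0.072. Both arms of the hairpin miR-3594, on the minus strand of chromosome 10, were 2-fold lower. miR-3594-5p was at 217 and 108 (-1.01 ± 0.14) and miR-3594-3p at 100.1 and 43.6 (-1.20 ± 0.23). With the local background these differences were -0.60 and -0.50. This hairpin was the only one of 15 with a 2-fold different arm in which both arms were 2-fold different the same way. The spots of both arms lie in block 9, whose median was 0.025, and the part of their shared position was not tested. miR-3557-3p was at 155.1 and 78.9 (-0.97 ± 0.16, and -0.31 with the local background).

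As a class these miRNAs spread in both directions. Of 102 on the array 49 were detected on both, 22 higher and 27 lower, with a median of -0.071. It was 0.23 in the authors' deposited values, where the median of all miRNAs was 0.34. By 2-fold 2 were higher and 4 lower, or 12.2% against 6.21% of the other 419, and by more than 2 technical errors 9 and 10, or 38.8% against 28.6%. Among the higher ones miR-3593-3p, in block 27, was at 357 and 621 (0.80 ± 0.11, and 0.18 block-centred). miR-6322, in block 25, was at 14.4 and 36.8 (1.35 ± 0.56, and 0.78 block-centred). The brightest, miR-3473, was at 5505 and 4524 (-0.28 ± 0.11).

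Of the miRNAs seen on 1 array alone, the brightest by far was miR-344a-3p, at 111 on the control and not detected on the diabetic array, and so at least 9.88-fold lower by its blank-corrected level, with a log2 difference of -1.34 for the local background. Neither day 11 array had a level near that, with miR-344a-3p not detected in control and at 11.3 in diabetic callus. Apart from it and miR-146b-3p, miR-344g (27.6), miR-200a-5p (25.8) and miR-29c-5p (24.6) were the brightest of the control array alone, each at least 2.19-fold lower. With the local background the differences of these 3 were -0.39, -0.06 and -0.0061. On the diabetic array alone miR-212-5p (48.5), miR-203a-3p (42.6), miR-93-3p (41.6), miR-412-3p (33.8) and miR-202-3p (32.9) were brightest. They were at least 4.74-fold, 4.16-fold, 4.07-fold, 3.30-fold and 3.21-fold higher by their blank-corrected levels. With the local background, which compresses dim miRNAs, their log2 differences were 0.29, 0.44, 0.39, 0.39 and 0.54, so these bounds do not hold in that setting. The first 3 lie in block 25. miR-203a-3p is a miRNA of keratinocytes, and of the 14 epithelial miRNAs 2 were detected on both arrays, 5 on the diabetic, 1 on the control array alone and 6 on neither. Of all 727 miRNAs, 12.7% were detected on the diabetic and 4.95% on the control array alone.

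The bright families of mesenchymal and widely expressed miRNAs differed by small amounts, and several of them in 1 direction. All 5 members of the miR-30 family were lower, with differences of -0.16 to -0.32, as were all 3 of the miR-29 family, which acts on collagen genes, with -0.08 to -0.28. Of 8 let-7 and miR-98 miRNAs 6 were lower and 2 higher, with a median of -0.14. let-7f-5p was at 5921 and 4642 (-0.35 ± 0.11), and let-7d-5p at 5041 and 5155. The 5 members of the miR-99/100 and miR-125 families were all lower, with miR-99a-5p at 2108 and 1580 (-0.42 ± 0.11) and miR-125b-5p at 5536 and 5440 (-0.03 ± 0.11). Of the 6 members of the miR-15/16 list, a family that restrains the cell cycle, 4 were lower and 2 higher. The seed group AGCAGCA holds 5 of them, 1 higher and 4 lower, without miR-503-5p (0.057). The members miR-195-5p (-0.33) and miR-322-5p (0.10) lie in block 27, and were -0.95 and -0.52 block-centred. The bright miRNAs of that block had a median of 0.070. miR-497-5p was at 1460.3 and 1022 (-0.51 ± 0.11), and miR-16-5p at 9592 and 8484 (-0.18 ± 0.11). In the authors' deposited values, where the median of all miRNAs was 0.34, the medians of these 5 families were positive, from 0.068 to 0.20, and that of let-7 was 0.098 with the local background and 0.026 block-centred.

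Other clusters leaned the other way or to neither side. Of 9 detected miRNAs of the miR-23/27/24 clusters 7 were higher and 2 lower, with a median of 0.21 that stayed above 0 in the settings tried. The 5 that map to the copy at chr17:1818672-1819425 (GRCr8) were all higher, with differences of 0.03 to 0.26. Among them, miR-24-3p also maps to the copy on chromosome 19, and its spot cannot tell the copies apart. miR-24-3p was at 3854 and 4537 (0.24 ± 0.11) and miR-27b-3p at 2551 and 2952 (0.21 ± 0.11), the first just over and the second just under 2 technical errors. The miR-17 to 92 cluster and its paralogs, active in dividing cells, had 11 higher and 11 lower of 22 and a median of 0.0056. miR-17-5p was at 1452 and 1718 (0.24 ± 0.11), miR-19b-3p at 1236 and 1171 and miR-20a-5p at 1082 and 1071.

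The imprinted Dlk1-Dio3 cluster, one of the large miRNA clusters of the rat genome, was mixed on day 5. Of 91 miRNAs on the array 66 were detected on both arrays, 38 higher and 28 lower, with a median of 0.074 that was -0.012 with the local background and -0.082 with spike scaling. By more than 2 technical errors 7 of the 66 were higher and 8 lower, where 15.6% and 14.1% of all 468 miRNAs were. The brightest, miR-494-3p, was at 1954 and 2875 (0.56 ± 0.11), the largest positive difference at a mean level of at least 1000. miR-134-3p was at 122.6 and 191, a difference of 0.64 ± 0.13 that was 0.067 block-centred, as its spot lies in block 25. In other blocks, miR-381-3p was at 142.8 and 97.7 (-0.55 ± 0.15) and miR-300-3p at 156 and 108 (-0.53 ± 0.14). The dim miR-668 was at 16.2 and 42.4 (1.39 ± 0.50) and miR-323-5p at 39.1 and 17.6 (-1.15 ± 0.51). By position, 43 miRNAs of chr6:134543460-134579828 (GRCr8) had 25 higher and 18 lower, and 13 of chr6:134314744-134331404 had 6 higher and 7 lower.

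The 2 arms of a hairpin are cut from 1 transcript, so their differences can be set side by side. Among hairpins with both arms detected on both arrays, the 2 arms had the same sign in 69 and opposite signs in 58, with Pearson's r of 0.16 and Spearman's rho of 0.15 across hairpins of the same 2 arrays. In the 51 pairs with both arms bright the sign was the same in 31, with r of 0.25. The median gap between arms was 0.36 over all pairs and 0.28 in the pairs with both arms bright. In miR-142 the gap was 0.054 and in miR-3594 it was 0.19, below both medians. The arms of miR-3594 share block 9, while those of miR-142 lie in blocks 14 and 32. Many pairs hold a dim arm with a large technical error, and how many gaps exceed the errors of their arms was not counted. Arms of opposite sign, both by more than 2 technical errors, included miR-210, induced by low oxygen, with miR-210-5p at 66.3 and 86.1 (0.38 ± 0.18) and miR-210-3p at 145.1 and 92.8 (-0.64 ± 0.15).

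**Figure D4:**
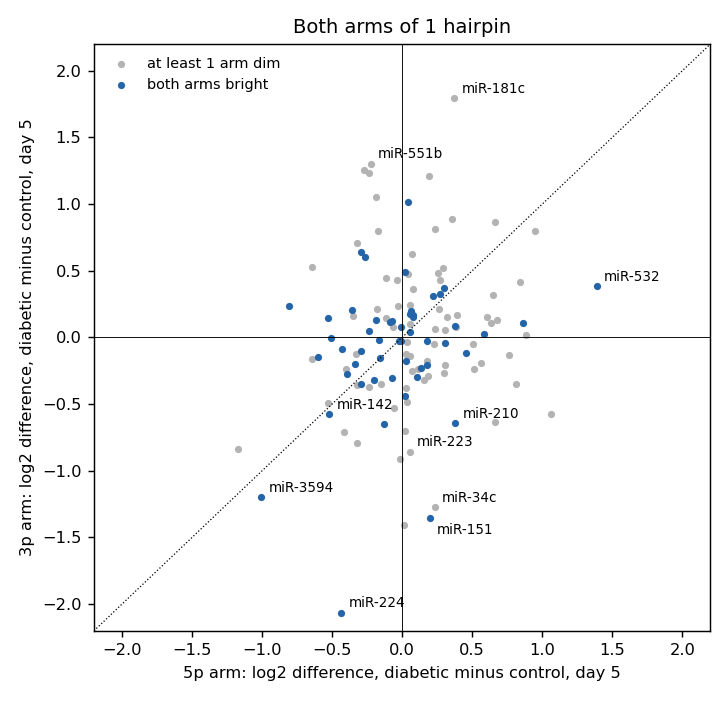
Log2 difference of diabetic minus control callus on day 5 for the 5p arm (x axis) and the 3p arm (y axis) of the hairpins with both arms detected on both arrays. Blue points are the 51 hairpins with both arms bright, and the dotted line marks equal differences. miR-3594 and miR-142 lie near that line, while miR-151, miR-210, miR-532 and miR-224 lie off it.

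The day 11 arrays hold other pools of the same groups and share no array with the day 5 comparison. Over the 400 miRNAs detected on all 4 arrays, 224 had the same sign on both days, with r of 0.18 and rho of 0.17. On day 11, 17 miRNAs (3.93% of those detected on both arrays of that day) were 2-fold higher and 21 (4.85%) lower, 38 (8.78%) in all. Of the 15 miRNAs 2-fold higher on day 5 and measured on all arrays, 8 had the same sign on day 11 and 2 were 2-fold higher again. Those 2 were miR-674-3p (1.25 and 1.04) and miR-6322 (1.35 and 1.69). Of the 8 that were 2-fold lower, 6 had the same sign and 2 were 2-fold lower again, miR-6324 (-1.34 and -1.16) and miR-6216 (-1.06 on both days). miR-3594-5p was close to that, at -1.01 and -0.91.

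The leukocyte, endothelial and erythroid lists did not have their day 5 differences between the pools of day 11. On that day miR-223-3p was at 598 in the control and 789 in the diabetic pool, and miR-142-3p at 264 and 292, all far below their day 5 levels. The leukocyte list had a median of -0.098 and the endothelial list of 0.14. miR-451-5p was at 1495 and 1458, so that its control level on day 5 was the lowest of the 4. miR-144-3p followed that pattern, at 95.6 and 97.5 on day 11. The miR-181 family had a median of -0.062 on day 11, and miR-181a-5p was at 2327 and 2186, above both day 5 levels. The pair miR-221-3p and miR-222-3p was higher in the diabetic pool on day 11 as well, with differences of 1.08 and 0.54, while the median of their block 27 was -0.050. miR-532-5p was at 49.6 and 61.6. The cartilage list had a median of -1.46, with 6 of 6 lower. No test of the difference between the days can be made with 1 pool each.

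**Figure D5:**
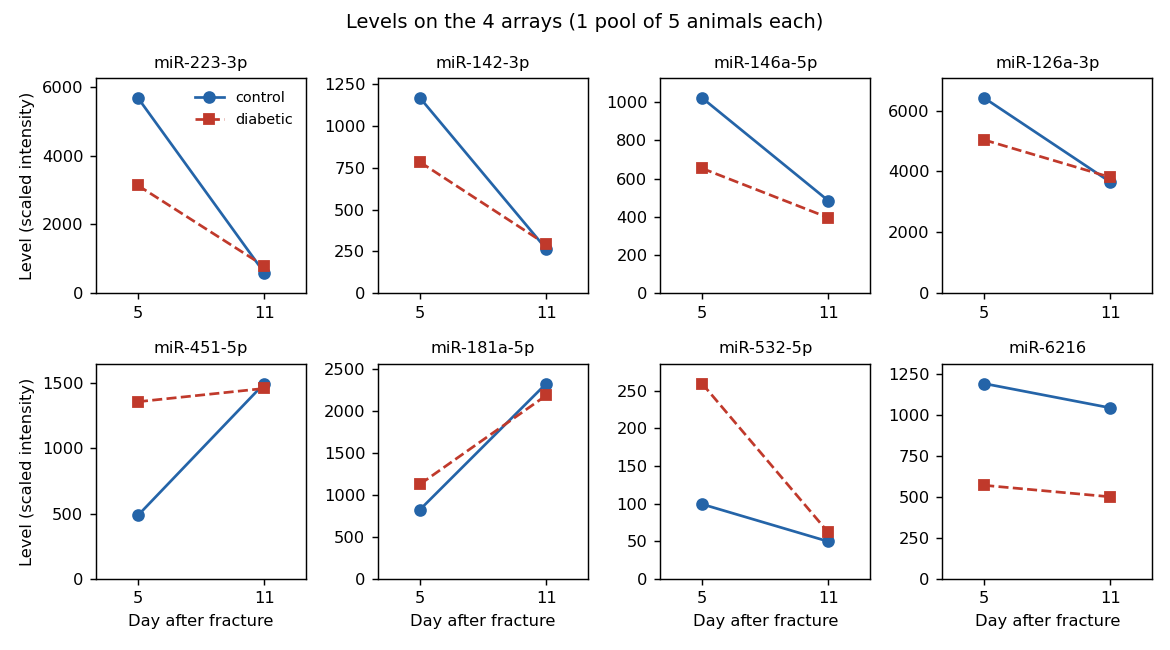
Level (y axis, scaled intensity from 0, with its own range in each panel) of 8 miRNAs by day after fracture (x axis) in control (blue circles) and diabetic callus (red squares). Each point is 1 array of 1 pool, and the lines join different pools. For miR-451-5p the control pool of day 5 (485.8) stands below the other 3 (1357 to 1495), for miR-532-5p the diabetic pool of day 5 (259.6) stands above the other 3 (49.6 to 99.2), and for miR-6216 the diabetic pool is lower on both days.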

How the data were processed

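Labelled total RNA of 4 pools was hybridised to 1-colour miRNA arrays. Per the file headers, the scanner files deposited by the authors hold a median intensity for every spot and another for its local background, with nothing subtracted. The authors' deposited value table holds linear intensity values. Set against the scanner files, they were blank-subtracted and rescaled array by array to a median of 25 over the listed miRNAs.

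From the spot intensity the mean of the blank spots was subtracted, with the top and bottom 5% left out, and each array was scaled to a median of 100 over 400 miRNAs. Spots over the blank mean plus 2 SD were detected. For a miRNA detected on 1 array, the fold is at least the ratio to the lowest detected level of the other array, or to its own level there if higher. The technical error is the root of the summed squares of the log2 SD of the spike spots (0.056 and 0.096) and of the blank SD relative to the level, over both arrays. The 1 spot marked unusable by the scanner, a spike spot, was left out of it. Blank SDs were 5.01 and 5.61 on the level scale. The number of arrays, 1 per group, limits the precision, and no p-value was computed.

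Named were the 12 largest differences in each direction among bright miRNAs, the 10 brightest, the 5 brightest of each array alone, both arms of such hairpins, the lists, and the seed groups of 4 or more with the 3 highest and 3 lowest medians. Single miRNAs outside this rule (miR-375-3p, miR-674-3p, the block members) were named after their values were seen. The miRNAs, lists and settings were chosen with earlier results of these data known. Alternatives were local background (normexp with an offset of 50 in limma 3.58.1, then quantile normalisation), quantile normalisation, scaling on day 5 or on the spikes, detection at 3 SD, no filter, a pseudocount of 10, the blank median and the authors' values. Those on array blocks were added after seeing the data. The steps were tested on simulated data. R 4.3.3, Python 3.11.15, numpy 2.4.6 and pandas 2.3.3 were used. Coordinates are RefSeq's.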

Additional observations from a re-analysis of the deposited data

Results flagged for a closer look

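Bright miRNAs with opposite differences on the 2 days, each over 2 technical errors and one of them 2-fold, were miR-376a-3p (-0.53 on day 5 and 1.123 on day 11), miR-379-3p (-0.44 and 1.48), miR-455-3p (0.37 and -1.35) and miR-183-3p (0.79 and -1.52). With 1 pool for each group and day, the difference between the days was not tested. The first 2 belong to the Dlk1-Dio3 cluster, and miR-183-3p lies in block 25, with a block-centred difference of 0.22 on day 5.

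A signal was also present outside the miRNA set. The array carries 22 further probes named only by a serial number, which the files do not pair with a gene, and 14 of them were detected on both day 5 arrays, with a median difference of -0.022. The brightest, S-Probe1014, had a level of 27307 on the control and 23672 on the diabetic array of day 5.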

How the results depend on the processing

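No paired analysis was possible because each group has 1 array. Against 20 miRNAs 2-fold higher and 12 lower, the counts were 1 and 1 with the local background, 13 and 21 with quantile normalisation, 11 and 7 with detection at 3 SD, 159 and 59 with no filter, 8 and 5 with a pseudocount of 10, and 47 and 5 in the authors' values. With the blank median of each block the higher count was 32. The share of higher among the 2-fold different miRNAs, 62.5%, was 38.2% with quantile normalisation, 46.9% with spike scaling, 51.7% with day 5 scaling, 90.4% in the authors' values, where the median of all miRNAs was 0.34, and 50% (1 of 2) with the local background. With no filter it was 72.9%.

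The leukocyte median of -0.37 was -0.53 with spike scaling, -0.072 in the authors' values and -0.15 with block medians subtracted. The erythroid median of 1.61 was 0.85 with the local background, 1.91 in the authors' values and 1.27 with block medians subtracted. The endothelial median of -0.32 was -0.44 with the local background, -0.48 with spike scaling and -0.019 in the authors' values. The miR-181 median of 0.84 was 0.40 with the local background, 0.60 with detection at 3 SD and 1.14 in the authors' values. These 4 kept their sign in all settings. Spike scaling and the authors' values shifted all miRNAs alike, to medians of -0.12 and 0.34 over all 468. miR-449a-3p, a dim miRNA at 30.0 and 11.3 (-1.41), was 0.62 with the local background. The cause was not tested. The median technical error was 0.48 for the 172 miRNAs that were not bright and 0.13 for the 296 bright ones.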

Other observations

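Several smaller groups each had members in both directions. Of 7 adipose and metabolic miRNAs detected on both arrays 3 were higher and 4 lower in the diabetic pool, with a median of -0.053. miR-378a-3p, from the gene of a coactivator of energy metabolism, was at 1524 in control and 1324 in diabetic callus, and miR-103-3p at 1062 and 963. The miRNAs of the Hox clusters had 4 higher and 4 lower and a median of -0.032, with miR-10b-5p at 478 and 382.4 (-0.32 ± 0.11) and miR-196b-3p at 57.7 and 87.5 (0.60 ± 0.19). In the miR-34 and miR-449 seed family, whose miR-34 members are induced by p53, 4 were higher and 1 lower, with a median of 0.23. miR-34a-5p was at 403 and 473 (0.23 ± 0.11) and miR-449c-5p at 47.0 and 28.7 (-0.71 ± 0.34, and -0.35 block-centred). The 2 miR-26 miRNAs had a median of -0.057. Of 5 neural miRNAs 4 were higher, with a median of 0.21 that was -0.059 with the local background, and 0 differed by more than 2 technical errors.

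Across the 425 miRNAs with a sequence the correlation of the difference with GC content was r of -0.0025 and rho of 0.031, and across the 269 bright ones r of 0.076 and rho of 0.15. The share of 2-fold differences was 3.03% of 66 miRNAs below 40% GC, 4.41% from 40 to 50%, 7.80% from 50 to 60% and 12.2% of 82 miRNAs above that. In the last bin 62.2% were higher in the diabetic pool, against 51.8 to 53.7% in the others. With the log2 level the correlation was r of -0.13 across 468. The points of each correlation share the same 2 arrays.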
